A study of Arabidopsis thaliana with 21 samples.

Results

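The glycine-rich RNA-binding protein AtGRP7 was crosslinked to its RNA targets in Arabidopsis thaliana plants, and 502 of its 19109 reproducible crosslink (XL) sites, 2.63%, carried an intron name in the deposited lists while lying outside the AtGRP7 transcript itself. An XL site is 1 nucleotide of the genome, the base just upstream of where reverse transcription stopped at the crosslinked residue, and its count is the number of crosslinked cDNAs that ended there. The 502 sites were chosen by their listing in at least 4 of the 5 AtGRP7-GFP libraries harvested 36 h after transfer to constant light (LL36), so that every value from these 5 libraries describes the sites and tests nothing. Another 18378 of the reproducible sites lay outside introns in transcripts other than AtGRP7, and the rest, 59 of them intronic, lay in the AtGRP7 transcript.

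The iCLIP series held 21 libraries of aerial tissue from plants labelled 18 days old, which had spent 16 days in days of 12 h light with nights of 12 h and were then kept in constant light until harvest at LL24 or LL36. Plants carried AtGRP7-GFP behind the AtGRP7 promoter in grp7-1, a mutant that lacks functional AtGRP7 (5 libraries at LL36 and 3 at LL24), GFP alone behind the same promoter in Col-0 wild type (GFP-only, 5 and 3 libraries), or AtGRP7 R49Q-GFP, whose RNA recognition motif has lost an arginine needed for full RNA binding, behind the same promoter in grp7-1 (2 and 3 libraries). All plants were irradiated with 254 nm UV at 500 mJ/cm2, and RNA was recovered by immunoprecipitation of GFP. Both controls thus express their protein where and when the AtGRP7 promoter is active, but GFP-only plants also retain their endogenous AtGRP7.

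Introns are removed from the pre-mRNA by the spliceosome and are usually short-lived, unless they are retained or hold another RNA. Many plant introns of ribosomal protein and translation factor genes hold small nucleolar RNAs (snoRNAs), which guide the methylation (C/D type) or pseudouridylation (H/ACA type) of ribosomal RNA and outlive the intron they are cut from. AtGRP7 is a clock-controlled protein with an RNA recognition motif and a glycine-rich stretch that shuttles between nucleus and cytoplasm and is known to influence alternative splicing, including that of its own transcript.

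The intron name of a site did not mean that the base was intronic in every transcript. The 502 sites lay in 88 genes, 1 intron per gene, and were placed into 6 exclusive classes against the RefSeq annotation of TAIR10.1. There were 143 sites inside an annotated snoRNA gene on the same strand (19 host genes) and 18 inside a tRNA gene (1 host gene). Another 128 lay just upstream of a run of at least 12 adenines that began within 15 nt (42 genes). In an exon of another transcript model of the same gene lay 130 (16 genes). In an intron of every model and outside these classes lay 71 (13 genes, termed residual intronic sites). The last 12 were exonic in every annotated model (8 genes). The 9 sites in 2 genes without an entry fell into the snoRNA and A tract classes. The classes were drawn up after the sites had been seen, and a gene can contribute to more than 1 of them. Ignoring the A tracts, 161 of the 502 sites lay in an intron of every annotated model and in no other gene on the same strand.

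The sequences that show the classes are given with 30 nt in 5′ to 3′ orientation on the transcribed strand, read from the RefSeq TAIR10.1 genome. The first set holds the strongest site of 9 genes next to an A tract, where capitals mark the XL site and then the tract. In the order shown, these windows lie at chr5:10358575-10358604 (plus), chr5:18314103-18314132 (plus), chr5:17197895-17197924 (minus), chr3:9976794-9976823 (minus), chr4:1024854-1024883 (minus), chr5:4833623-4833652 (minus), chr1:11629125-11629154 (minus), chr1:23918916-23918945 (minus) and chr5:20637080-20637109 (minus).
AT5G28410: atgaTgcttAAAAAAAAAAAAAAAAAAAAA
AT5G45240: ggtaTgtgAAAAAAAAAAAAAAAAAAAAAA
COR27: aagaGgatcAAAAAAAAAAAAAAAAAAAAA
AT3G27040: taaaCgtAAAAAAAAAAAAAAAAAAAAAAA
AT4G02320: cattTtttaaactAAAAAAAAAAAAAAAAA
AT5G14940: ttcgAtgcatcttcccgatAAAAAAAAAAA
KAN2: tttaTacaacAAAAAAAAAAAAAAAAAAAA
LACS3: tttgTccccAAAAAAAAAAAAAAAAAAAAA
AT5G50740: tgaaTttggttcAAAAAAAAAAAAAAAAAA
In all 9 genes an unbroken adenine run filled the 3′ part of the window, while the base at the XL site itself was T in 6 of them, A, C and G in 1 each.

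The second set shows the strongest site in each of 4 snoRNA genes, with the XL site alone in capitals, at chr5:146659-146688 (minus strand), chr5:2632792-2632821 (minus), chr5:16424336-16424365 (plus) and chr1:1216992-1217021 (plus).
AtsnoR112: tctcaacttcagctGgtttgctacgtaatt
AtsnoR100a: tgccatctctgattTtttccctgattagac
AtU19: aggagctttgcttcTgctaagtatcaagct
AtsnoR155c: aattgtgtccttcgTtacagatgctttatt
No adenine run of 12 was present in these windows, and the XL site was T in 3 of them. The windows shown are not the 4 with the most sites. Of those left out, snoR123b held 12 sites and AtsnoR79a 8, with A and T at their strongest sites.

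A last set shows the strongest site in the tRNA gene within AT3G12587, in 3 genes whose intron is exonic in another model (CA1, AT5G61310 and THIC), and in 3 introns common to every model (AT5G46430, EIF4A-2 and AT2G40650), with the XL site in capitals. In the order shown, they lie at chr3:3995128-3995157 (minus), chr3:195054-195083 (minus), chr5:24654306-24654335 (minus), chr2:12669885-12669914 (plus), chr5:18833763-18833792 (plus), chr1:20260254-20260283 (plus) and chr2:16964284-16964313 (minus).
AT3G12587: gagtggatatcgcgTtagactccgaatcta
CA1: atttgtaatgtgccTttgactgtgatgagt
AT5G61310: cgatttttaaaggcTtggggttgctttcta
THIC: tctgttcatttgagTcagagtcagcaataa
AT5G46430: ggtagccagaattcTaattctgtttctggt
EIF4A-2: gagagatagatgttTttgaatggtatctgt
AT2G40650: tctagtactctgtcTtttgagtgtctgttt
Each of these 7 sites was a T in the genome, a uridine in the RNA.

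The plot of sites per gene shows how unequal the 88 genes were. The median was 4 sites per gene, 11 genes had 1 site, and the 12 genes with at least 10 sites held 213 of the 502. Joining sites within 10 nt of each other left 119 groups, of which 23 held 1 position and the widest 46.

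**Figure D1:**
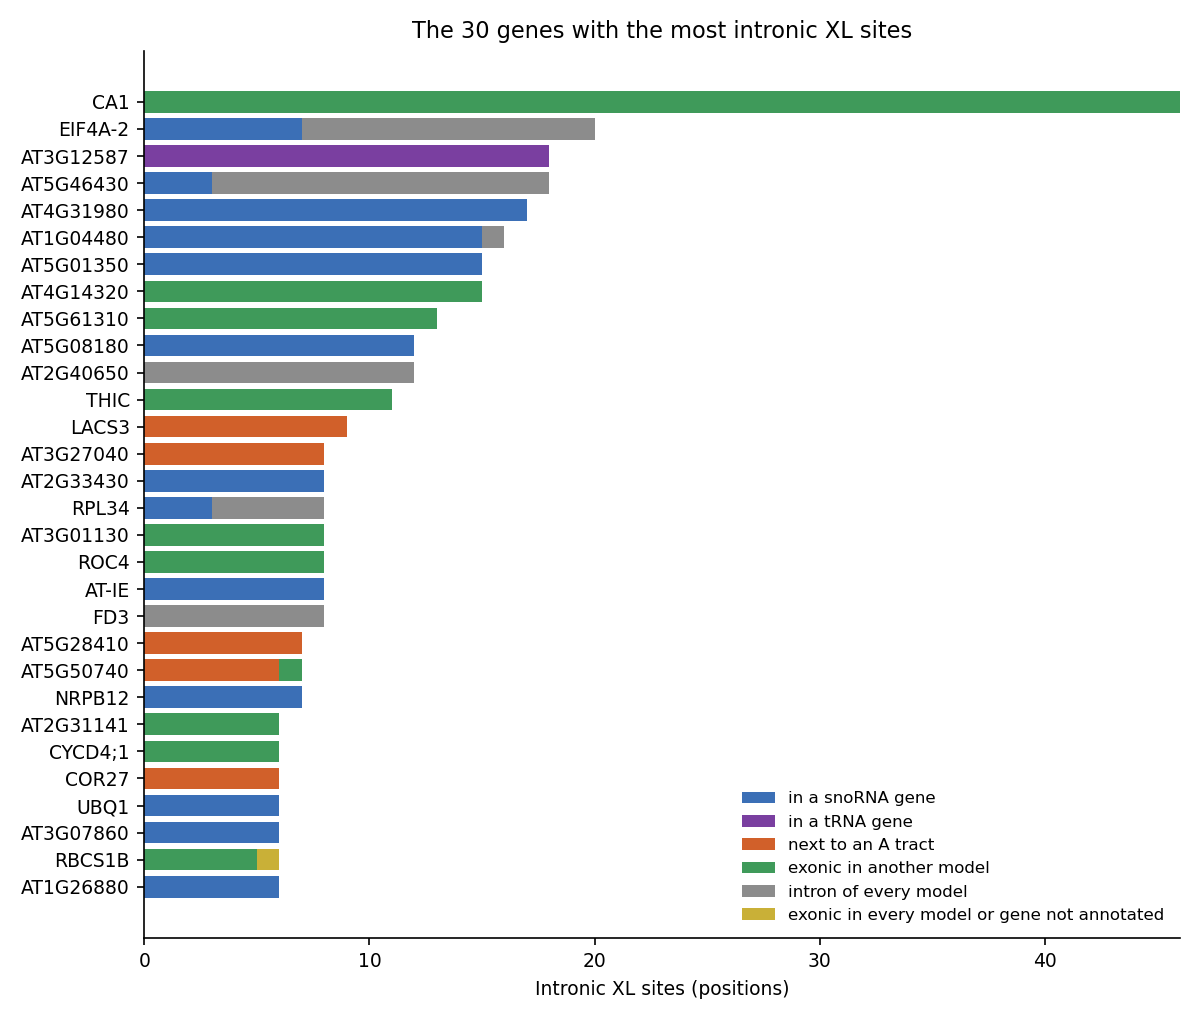
Number of intronic XL sites (x axis, positions) in the 30 genes with the most sites (y axis), coloured by class. CA1 stands apart with 46 sites, all exonic in another transcript model, followed by EIF4A-2 with 20.

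At the edge of the selection, 251 sites were listed in all 5 AtGRP7-GFP libraries at LL36 with a median count of 6.6 crosslinks per library, and 251 in exactly 4 with a median of 3.0. Just outside lay 366 intronic positions listed in 3 libraries with a median of 2.0, and 2087 were listed in only 1. The lists hold only positions that the authors had called significant, so that a site missing from a library has no count there rather than a count of 0.

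The 5 AtGRP7-GFP libraries at LL36 listed 487, 494, 450, 372 and 456 of the 502 sites. The 3 AtGRP7-GFP libraries at LL24, which had no part in the choice, listed 256, 282 and 150 of them (229 ± 69.9, SD, n = 3). GFP-only libraries listed 1, 4, 0, 0 and 0 at LL36 and 7, 9 and 0 at LL24, and AtGRP7 R49Q-GFP libraries listed 0 and 12 at LL36 and 21, 76 and 1 at LL24. No control library reached the lowest AtGRP7-GFP library of its own time point. The lists themselves differed far more in size, from 27035 to 85639 positions in AtGRP7-GFP at LL36 and 8092 to 25018 at LL24, against 21 to 292 positions in GFP-only and 12 to 2710 in AtGRP7 R49Q-GFP. Counts were not scaled for depth, and the part of depth in these differences was not tested.

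On a log2(sites + 1) scale at LL24, AtGRP7-GFP libraries exceeded GFP-only libraries by 5.69 (7.80 ± 0.49 against 2.11 ± 1.83, SD, n = 3 each), with an exact two-sided permutation p of 0.1, adjusted to 0.15 over 3 genotype pairs. They exceeded AtGRP7 R49Q-GFP libraries (3.91 ± 2.68, SD, n = 3) by 3.89, again with an exact permutation p of 0.1 and an adjusted p of 0.15. AtGRP7 R49Q-GFP exceeded GFP-only by 1.80 (exact permutation p = 0.4, adjusted p = 0.4). With 3 libraries against 3 the smallest p is 0.1, so none of these comparisons could pass 0.05. As a share of the positions each library listed, the intronic sites made up 1.97%, 1.13% and 1.85% in AtGRP7-GFP at LL24, 3.37%, 3.08% and 0% in GFP-only and 4.99%, 2.80% and 1.32% in AtGRP7 R49Q-GFP. On that scale AtGRP7-GFP lay below both controls, by 0.50 percentage points against GFP-only (exact permutation p = 0.7) and by 1.39 against AtGRP7 R49Q-GFP (exact permutation p = 0.3), and the ranges of the genotypes overlapped.

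**Figure D2:**
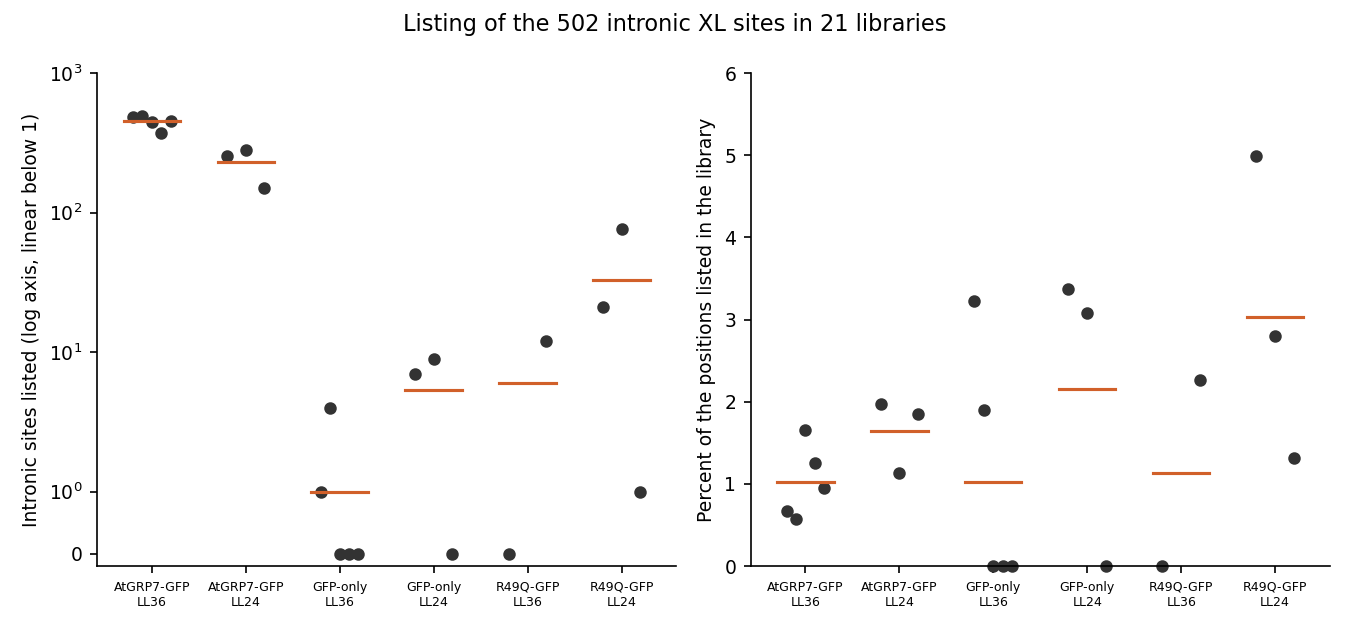
Left, number of the 502 intronic XL sites listed in each library (points) on a log axis that is linear below 1. Right, the same sites as a percent of all positions the library listed. Orange lines are group means. The 3 AtGRP7-GFP libraries at LL24 listed 150 to 282 sites and the 3 GFP-only libraries 0 to 9, while the percentages of the groups overlapped.

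At LL24, 228 of the 502 sites, 45.4%, were listed in at least 2 of the 3 AtGRP7-GFP libraries, beside 39.6% of all reproducible sites and 39.9% of the 18378 outside introns. The share listed exceeded that of the sites outside introns by 10.4 percentage points in replicate 1 and 2.69 in replicate 3 and was lower by 1.77 in replicate 2 (mean 3.76 ± 6.14, SD, n = 3), and an exact sign-flip permutation test gave p = 0.5, where 0.25 is the smallest p possible. Without the 46 sites of CA1 the mean difference was -0.405. Over the 161 sites that were intronic in every model it was -0.724. With positions within 10 nt merged, which left CA1 as 1 group, it was 6.08 (exact sign-flip p = 0.25). Without sites in snoRNA and tRNA genes it was 6.85 (exact sign-flip p = 0.25), and without those next to A tracts 2.1. Its direction thus changed with the choice of sites, and it was not tied to CA1 once sites were merged. The classes spread widely around the common share. Listed in at least 2 of 3 libraries were 79 of 130 sites that were exonic in another model (60.8%) and 10 of 18 in the tRNA gene (55.6%). So were 64 of 128 next to an A tract (50.0%) and 53 of 143 in snoRNA genes (37.1%). The lowest shares were 21 of 71 residual intronic sites (29.6%) and 1 of the 12 that were exonic in every model (8.33%). Over the 161 sites that were intronic in every model, A tracts included, it was 63 (39.1%). CA1 alone held 43 of the 79, and the other 84 sites of its class had 36 (42.9%).

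**Figure D3:**
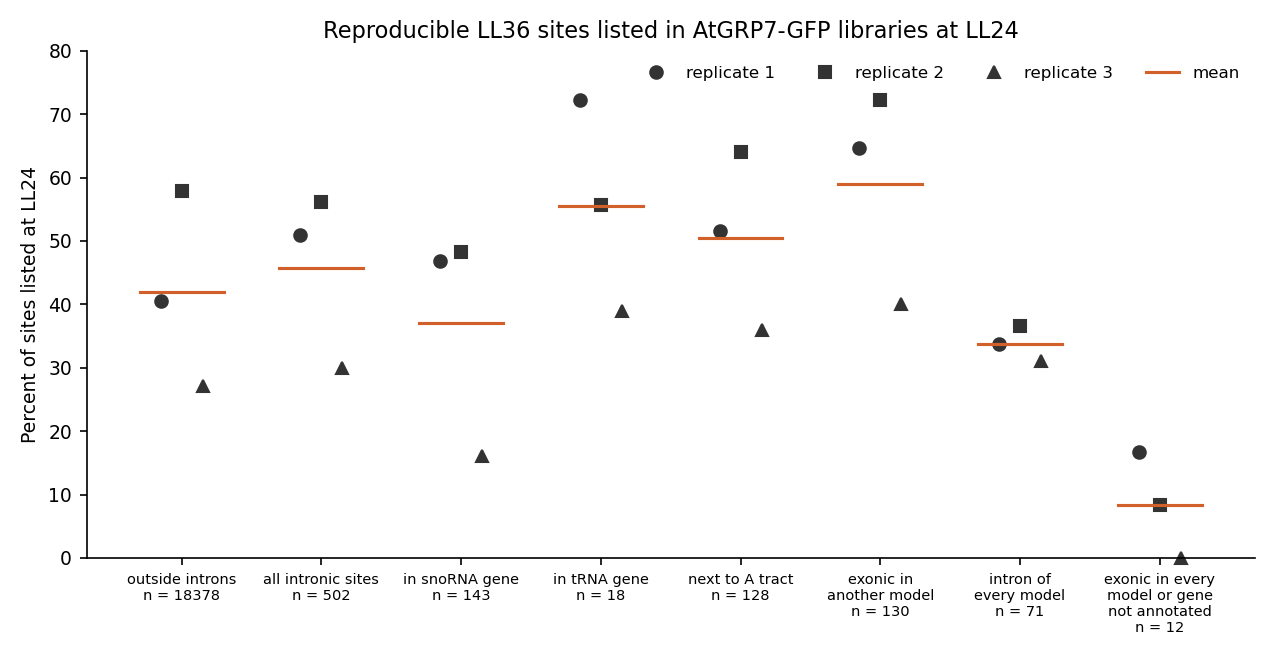
Percent of reproducible LL36 sites (y axis) that were listed in each of the 3 AtGRP7-GFP libraries at LL24 (points by replicate, orange line the mean), for sites outside introns, all intronic sites and the 6 classes. Sites next to an A tract ranged from 35.9% to 64.1% and residual intronic sites (intron of every model) from 31.0% to 36.6%.

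Of the 502 sites, 12 turned up in 1 or more of the 8 GFP-only libraries, 2.39%, beside 1.94% of all reproducible sites. They lay in 4 genes: 5 in the tRNA gene within AT3G12587, 4 in AT3G27040, 2 in AT5G28410 and 1 in CA1, so that 11 of the 12 were in the tRNA gene or next to an A tract. None of the 143 sites in snoRNA genes and none of the 71 residual intronic sites was among them. In the AtGRP7 R49Q-GFP libraries 89 sites in 19 genes were listed at least once, 17.7%, beside 10.9% of all reproducible sites, and 10 of the 12 sites seen in GFP-only were among these 89. CA1 contributed 27 of the 89 and the tRNA gene 11. Next to A tracts 31 sites in 9 genes were listed, among them 6 in AT5G28410, 4 each in AT3G27040, AT5G14940 and AT5G50740 and 3 each in LACS3, AT4G02320, COR27 and AT5G45240. In snoRNA genes 15 sites were listed, among them 5 in AT5G08180, 3 each in EIF4A-2 and FIB1 and 2 in AT1G04480. None of the 71 residual intronic sites was listed in AtGRP7 R49Q-GFP. Of the 161 sites intronic in every model, which add 90 sites next to A tracts to these 71, GFP-only libraries listed 2 (1.24%) and AtGRP7 R49Q-GFP libraries 20 (12.4%). Replicate 2 of AtGRP7 R49Q-GFP at LL24, the control library with the longest list, held 76 of the 98 listings of its group.

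CA1 encodes carbonic anhydrase 1, the chloroplast enzyme that interconverts CO2 and bicarbonate. Its 46 sites lay within 51 nt at chr3:195039-195089 on the minus strand, inside intron 9 of 9 of the annotated model (chr3:194892-195178), in a stretch that is 3′ UTR in 2 of the 4 annotated models. The AtGRP7-GFP libraries listed 46, 46, 39, 44 and 44 of them at LL36, with 604, 747, 270, 193 and 285 crosslinks in all. At LL24 they listed 39, 45 and 36 of them with 215, 444 and 133 crosslinks, 43 of the 46 in at least 2 of 3 libraries. The strongest base, 195069, carried 99, 104, 50, 24 and 28 crosslinks at LL36 and 30, 62 and 8 at LL24, the highest value of the gene at both times. AtGRP7 R49Q-GFP listed 9, 23 and 0 of the sites at LL24, and GFP-only listed 1 once. The CA1 transcript also had 68 reproducible sites outside introns, 42 of which were listed in at least 2 of 3 libraries at LL24.

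The other sites that were exonic in another model fell mostly into transcript ends. Over the whole class 92 of 130 sites were in a 3′ UTR of the other model (9 genes), 32 in a 5′ UTR (6 genes) and 6 in a coding sequence (1 gene, CYCD4;1, which encodes a D-type cyclin). AT5G61310, annotated as a cytochrome c oxidase subunit Vc family protein, had 13 sites in the 5′ UTR of 1 of 6 models, with 122, 167, 64, 45 and 56 crosslinks at LL36 and 29, 25 and 18 at LL24, and 11 of the 13 were listed in at least 2 of 3 libraries at LL24. AT4G14320, which encodes a zinc-binding ribosomal protein, had 15 sites with 37, 40, 17, 31 and 39 crosslinks at LL36. At LL24 replicates 1 and 2 gave 7 and 23 crosslinks and replicate 3 listed no site, and 5 of the 15 sites were listed in at least 2 of 3. CYCD4;1 had 6 sites with 132, 141, 67, 57 and 111 crosslinks at LL36 and 34, 52 and 15 at LL24. AT2G31141 had 6 sites with 135, 207, 52, 58 and 53 crosslinks at LL36 and 36, 58 and 17 at LL24, and 4 of them were listed in AtGRP7 R49Q-GFP. Crosslinks over all listed positions ranged from 27252 to 98067 at LL24 and from 109583 to 401493 at LL36, and no change between the times is read from the raw values of these genes.

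THIC encodes an enzyme of thiamine biosynthesis, and splicing of an intron in its 3′ UTR is known to be controlled by a thiamine pyrophosphate riboswitch. It had 11 sites within 22 nt at chr2:12669878-12669899 on the plus strand, in intron 6 of 6 (chr2:12669835-12669986, 152 nt), which were exonic in 2 or 3 of the 4 models. The LL36 libraries listed 10, 9, 10, 9 and 8 of the 11 sites, with 24, 34, 17, 18 and 20 crosslinks. At LL24 none of the 11 was listed in any AtGRP7-GFP library, and none was listed in a control. Counts were low: the strongest site had a mean of 4.25 crosslinks at LL36, and 2 of the 11 were listed in all 5 libraries. In the shorter LL24 lists, an absent site cannot be told from one below the significance call. THIC had no reproducible site outside this intron.

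snoRNA genes accounted for the largest class, 143 sites in 23 snoRNA genes of 42 to 199 nt, out of 287 annotated snoRNA genes. Within these genes divided into 3 parts of equal length, 30 sites lay in the 5′ part, 67 in the middle part and 46 in the 3′ part. The letters ACA directly before the last 3 bases, as at the end of an H/ACA snoRNA, were present on the sense strand in 11 of the 23, beside 18.1% of all annotated snoRNA genes. TGATGA within the first 20 bases, the C box of C/D snoRNAs, was present in 4 of the 23 beside 43.6%. CTGA within the last 15 bases, their D box, was present in 6 beside 61.3%. The annotated genes were not matched to the 23 for length or for lying in an intron. A preference for a snoRNA type was not tested. Both AtsnoR112, in AT5G01350, and AtsnoR155c, in the ribosomal protein gene AT1G04480, held 15 sites. snoR123b and snoR123a in AT4G31980 held 12 and 5, AtsnoR79a in AT-IE held 8, AtsnoR100a and snoR140 in AT5G08180 held 7 and 5, AtU19 in the RNA polymerase subunit gene NRPB12 held 7 and AtsnoR81 in EIF4A-2 held 7. Another 6 each lay in AtsnoR91 of UBQ1, which encodes ubiquitin fused to a ribosomal protein, snoR130 of AT3G07860, AtsnoR110-1 of AT1G26880 and AtsnoR74-1 of AT1G67430. Between 3 and 5 sites per snoRNA gene lay in the remaining hosts, AT4G17390, EIF4A1, AT2G33430, AT1G27400, FIB1, RPL34, AT1G29465 and AT5G46430.

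AtsnoR112 held the strongest snoRNA site, base 146674 of chromosome 5 on the minus strand, with 109, 135, 44, 3 and 12 crosslinks at LL36 and 9, 7 and 1 at LL24. Replicates 4 and 5 stood far below the first 3 at this base. All 15 sites together gave 230, 287, 114, 55 and 44 crosslinks at LL36 and 28, 33 and 13 at LL24, and 9 of the 15 were listed in at least 2 of 3 libraries at LL24. AT5G08180, whose product belongs to the L7Ae family of proteins that bind kink-turn RNAs in ribosomes and snoRNPs, gave 100, 143, 46, 22 and 71 crosslinks over its 12 sites. AT4G31980 gave 74, 105, 21, 24 and 68 over 17 sites, and at LL24 18 and 21 in replicates 1 and 2, with no site listed in replicate 3. AT1G04480 gave 59, 87, 50, 17 and 28 over 16 sites. FIB1 encodes fibrillarin, the methyltransferase of C/D snoRNPs, and its 4 sites lay in the C/D snoRNA of its own intron.

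Of the 71 residual intronic sites, 25 in 5 genes lay within 50 nt of a snoRNA gene and 46 in 10 genes lay farther away or had none. Their median distance was 258 nt from the 5′ splice site and 225 nt from the 3′ splice site, with 5 sites within 30 nt of the former and 6 of the latter. EIF4A-2, a DEAD-box RNA helicase of translation initiation, had 20 sites at chr1:20260249-20260366 on the plus strand, 7 in AtsnoR81 and 13 outside it. Its strongest base, 20260268, lay 43 nt upstream of AtsnoR81 and carried 52, 50, 31, 41 and 62 crosslinks at LL36 and 27, 44 and 28 at LL24. All 20 sites of EIF4A-2 together gave 203, 225, 131, 74 and 162 crosslinks at LL36 and 59, 78 and 34 at LL24. At LL24, 6 of the 20 were listed in at least 2 of 3 libraries. AT5G46430, which encodes ribosomal protein L32e, had 18 sites with 201, 173, 105, 61 and 76 crosslinks at LL36 and 18, 24 and 11 at LL24. Its strongest base, 18833777 of chromosome 5, also lay 43 nt upstream of a snoRNA gene, AtsnoR72. AT2G40650, a PRP38 family protein and thus related to a splicing factor of yeast, had 12 sites at chr2:16964283-16964323 with 64, 88, 40, 17 and 42 crosslinks at LL36 and 6, 9 and 5 at LL24. FD3, a ferredoxin, had 8 sites with 22, 34, 23, 3 and 22 crosslinks at LL36.

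**Figure D4:**
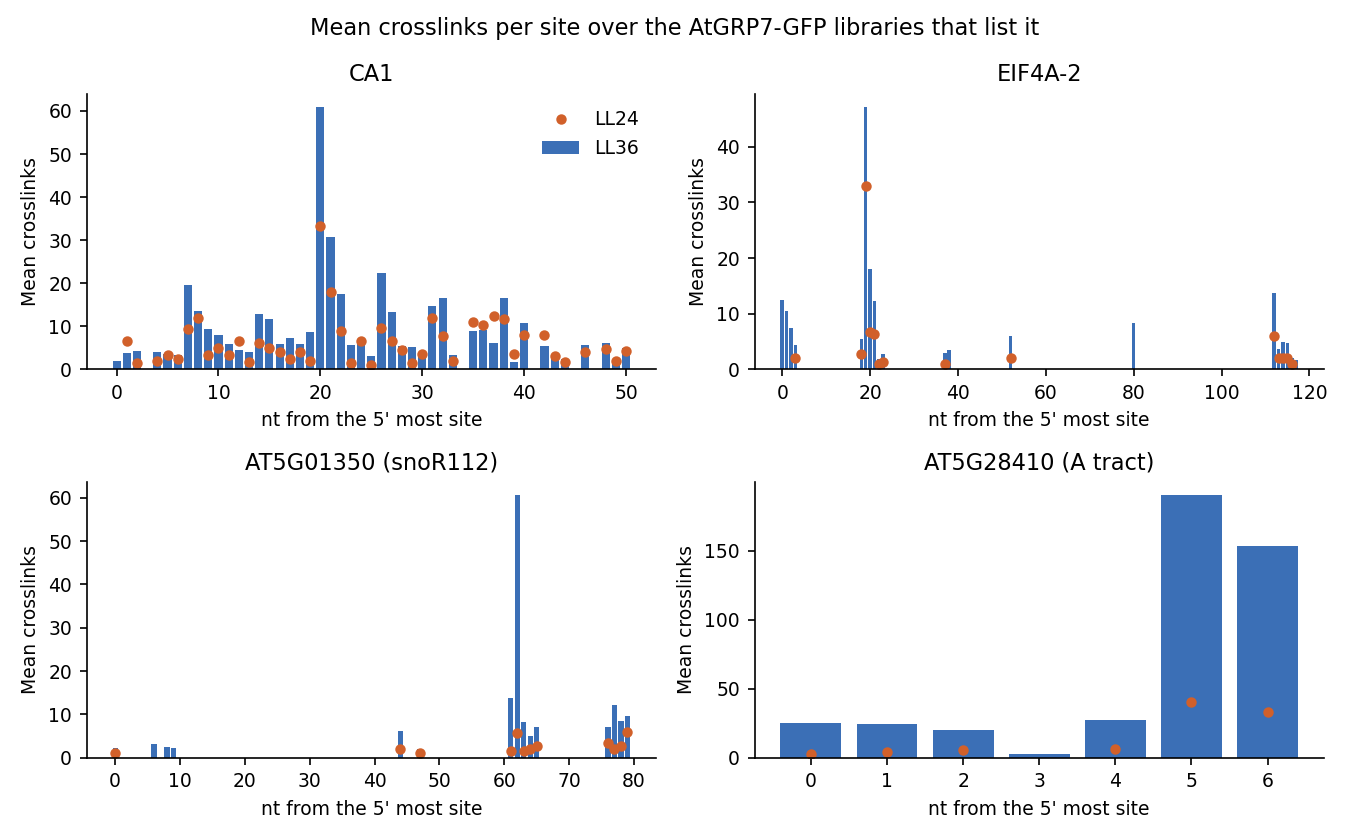
Mean crosslinks per site (y axis) over the AtGRP7-GFP libraries that listed it, at LL36 (blue bars) and LL24 (orange points), against distance in nt from the most 5′ site (x axis) for CA1, EIF4A-2, AT5G01350 and AT5G28410. The highest bar reached 61.0 in CA1, 47.2 in EIF4A-2, 60.6 in AT5G01350 and 190.2 in AT5G28410, and the LL24 points of CA1, EIF4A-2 and AT5G28410 were highest at the same base.

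The tRNA gene AT3G12585, annotated for arginine, lies in the intron of AT3G12587, which encodes an oligosaccharyltransferase subunit. Its 18 sites lay between bases 17 and 49 of the 73 nt gene. They gave 248, 332, 133, 72 and 131 crosslinks at LL36 and 59, 55 and 17 at LL24. The strongest base, 3995143 of chromosome 3, carried 104, 157, 49, 37 and 52 crosslinks at LL36. GFP-only listed 1 and 2 of these sites in 2 of its 5 LL36 libraries and 3 and 4 in 2 of its 3 LL24 libraries, so this gene was seen in libraries without tagged AtGRP7.

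Next to A tracts lay 128 sites, 25.5% of the intronic sites, but 113 of the 18378 reproducible sites outside introns, 0.615%, and none of the 59 in the AtGRP7 intron. By the same measure 0.0782% of all annotated intron bases and 0.0721% of all exon bases lay inside such a run or within 15 nt upstream of it. The share of intronic sites was 25.5% with a run of at least 8 or 10 adenines as well and 24.3% with at least 15. The run began a median of 7 nt downstream of the site (3 to 15 nt, with 119 of 128 at 4 to 11 nt) and was 13 to 39 adenines long, with a median of 23. The median was 3 sites per gene and the most was 9. In 40 of these 42 genes no site outside introns was reproducible, against 69 of all 88 genes, 14 of 19 snoRNA hosts and 7 of 13 genes with residual intronic sites.

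Longer runs were listed more often. Of 302 runs of 12 to 14 adenines in annotated introns, 11 had a position listed at LL36 within the window and 3 had a selected site (0.993%). Of 142 runs of 15 to 19 adenines, 38 and 15 did, and of 31 runs of 20 to 24, 12 and 10 did. All 8 runs of 25 or more had a listed position and 7 had a selected site. Of 1771 runs of at least 12 uridines in the same introns, 1 had a listed position and none had a selected site. What such tracts contributed to the capture, priming or placement of reads was not tested.

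**Figure D5:**
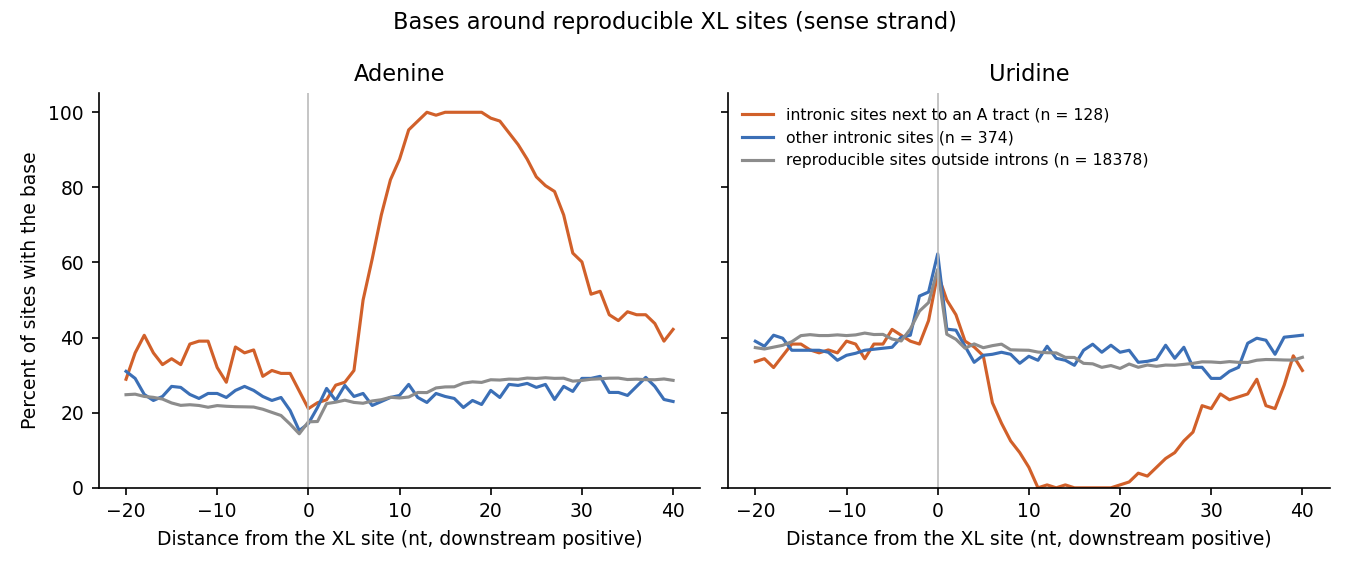
Percent of sites with adenine (left) or uridine (right) at each distance from the XL site (x axis, nt, downstream positive) for intronic sites next to an A tract (n = 128), other intronic sites (n = 374) and reproducible sites outside introns (n = 18378). Adenine next to A tracts climbed from 21.1% at the site to near 100% downstream by construction, while all 3 groups had their uridine maximum at the site.

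Among the genes next to an A tract, AT5G28410 held the highest counts of all intronic sites. Its 7 sites at chr5:10358574-10358580 on the plus strand gave 540, 704, 466, 226 and 283 crosslinks at LL36 and 98, 138 and 40 at LL24. The strongest, base 10358579, carried 216, 314, 213, 102 and 106 crosslinks at LL36 and 40, 61 and 20 at LL24, with 19 in replicate 2 of AtGRP7 R49Q-GFP at LL24. AT3G27040 had 8 sites with 141, 187, 98, 61 and 226 crosslinks at LL36 and 43, 77 and 40 at LL24. Its sites lay outside the gene span of the RefSeq annotation, and GFP-only listed 2, 2 and 0 of them at LL24. LACS3, a long-chain acyl-CoA synthetase, had 9 sites with 73, 90, 60, 23 and 103 crosslinks at LL36 and 18, 29 and 10 at LL24. COR27, a cold-regulated gene of the evening phase of the clock, had 6 sites with 98, 134, 85, 46 and 54 crosslinks at LL36 and 14, 28 and 10 at LL24. None of the 6 COR27 sites was a uridine, and all were exonic in 1 of 3 models. KAN2, a transcription factor of leaf polarity, had 3 sites next to a run of 23 adenines.

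The 8 genes with intronic sites that were matched as photosynthesis genes by product name differed at LL24. The number of their sites listed in at least 2 of 3 libraries varied. CA1 had 43 of 46, RBCS1B, which encodes a small subunit of Rubisco, 4 of 6 and FD3 2 of 8, while RBCS1A with 4 sites, PSBR and BCA4 with 3 each and LHCB5 and PSAO with 2 each had none. RBCS1A, another small subunit gene of Rubisco, had 2 of its 4 sites in sequence that is exonic in every annotated model, while 261 of its 296 reproducible sites outside introns were listed in at least 2 of 3 libraries at LL24. Outside introns the share was 104 of 158 sites in RBCS1B, 142 of 183 in PSBR, a subunit of photosystem II, 81 of 163 in LHCB5, a light-harvesting protein, and 55 of 112 in PSAO, a subunit of photosystem I. The cause of these differences was not tested.

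Gene groups were drawn from the words of the annotated gene products. These words miss members whose product is worded otherwise and can match genes with another function. Among 305 genes matched as cytosolic ribosomal proteins, 97 had a reproducible site and 8 of these, 8.25%, had an intronic one, beside 86 of 820 protein-coding genes (10.5%). These 8 genes held 75 intronic sites, 54 of them inside snoRNA genes and none next to an A tract, and each of the 8 had a site in a snoRNA gene. AT4G14320, a ribosomal protein gene that the words did not match, had 15 intronic sites and none in a snoRNA gene. Of 53 genes matched as photosynthesis genes with a reproducible site, 8 (15.1%) had intronic ones, 74 in all, of which CA1 had 46. FD3, with 8, and BCA4, with 3, are included by product name, and their part in photosynthesis was not tested. In RBCS1A, RBCS1B, PSBR, LHCB5 and PSAO the intronic sites lay at the edge of the intron. Each was within 7 nt of the 3′ splice site or in sequence exonic in every model. Over all 502 sites, 12 lay within 3 nt of a splice site. Of 20 genes matched as RNA-binding, splicing or translation factors, 4 (20.0%) had 24 intronic sites, among them 12 in AT2G40650 and 5 in EIF4A1. The initiation factor genes EIF4A-2, with 20 intronic sites, and eIFiso4G1, with 2, were not matched by these words and stand outside this count. Of 10 transporter genes with a reproducible site, 4 had 9 intronic sites that were all next to A tracts, 5 of them in AT5G14940 and 2 in the amino acid permease gene AAP6. Of 10 GDSL lipase genes 3 had 5 intronic sites, and 3 of these 5 lay next to A tracts.

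Uridine was the base at 61.0% of the intronic sites (306 of 502, Wilson 95% interval 56.6% to 65.1%, which covers counting error only), beside 58.2% of the 18378 sites outside introns and 37.9% of all bases of the introns that held sites. By class it was 66.7% of sites exonic in every model, 64.8% of residual intronic sites and 64.3% in snoRNA genes. It was 61.5% of those exonic in another model, 57.0% next to A tracts and 38.9% in the tRNA gene. Neighbouring sites share their sequence, so that 1 site per group within 10 nt was also taken, the strongest. Uridine was then at 74.8% of the 119 intronic groups and at 88.5% of 1666 groups outside introns. In the 10 nt on either side, adenine made up 39.3% of the bases around sites next to A tracts. It made up 23.5% around the other intronic sites and 21.1% outside introns. The first share was raised by construction, as that class was chosen by its adenine run.

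The 59 sites in the intron of AtGRP7 were set aside by the choice of sites. None of them was listed at LL24, where the AtGRP7 transcript had 3 listed positions in replicate 2 and none in the other replicates, while 228 of the 502 sites in other introns were listed in at least 2 of the 3 libraries.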

How the data were processed

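The authors trimmed the iCLIP reads with cutadapt 1.9.1, removed PCR duplicates by random barcode, mapped unique reads to TAIR10 with STAR 2.5.2a allowing at most 3 mismatches, and called a position significant at a false discovery rate under 0.05 against random placement within the same transcript region. The deposited files give, per library, each significant position with its strand, its region name and its count of crosslinks, neither normalized nor scaled for depth. Total mapped reads were not used here. Each file held 1 library, and groups were taken from the sample labels.

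Sites were matched across libraries by chromosome, position and strand. The class of each site came from RefSeq TAIR10.1, in whose annotation 473 of the 502 sites fell within an intron of some model. The library, at LL24, was the unit of every test, and libraries are biological replicates by the study's methods. The number of sites listed was compared between genotypes with exact two-sided permutation tests on log2(sites + 1), with Benjamini-Hochberg adjustment over 3 pairs, and the share listed at LL24 with an exact sign-flip test. No test was made at LL36, where the sites were chosen. Tests were run on simulated data first. Named genes are the 20 with the most sites, every gene with a site listed in a control, every host of a small RNA gene, THIC, COR27 and up to 4 genes per gene list, and PSAO, BCA4, RBCS1B and eIFiso4G1 were added after their values were seen. The sites, classes and gene lists were chosen with earlier results of these data known. Computations used scipy 1.17.1, pandas 2.3.3 and numpy 2.4.6 under Python 3.11.15, and matplotlib 3.10.9 drew the figures.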

Additional observations from a re-analysis of the deposited data

Results flagged for a closer look

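Among 56 sets of 5 libraries that were examined for 1 library far from the other 4, 11 values stood out. The sets overlap, and their counts are small and capped by the number of sites. A single missed site can therefore be flagged, and the number flagged cannot be set against a chance rate. The values at LL36 in AtGRP7-GFP are those by which the sites were chosen. Replicate 4 of AtGRP7-GFP at LL36 was the low library in 7 of the 11. It listed 41 sites in introns of every model away from A tracts where the median of the 5 libraries was 66. It listed 4 sites exonic in every model (median 11), 11 in EIF4A-2 (median 20) and 7 in AT5G08180 (median 12). The rest were 6 sites in LACS3 (median 9), 1 in AT2G33430 (median 8) and 3 in FD3 (median 8). Replicate 4 listed 29831 positions in all and replicate 3 listed 27035, so that the library with the fewest intronic sites was not the one with the shortest list. Replicate 3 was the low library for CA1, with 39 sites (median 44), and for AT3G01130, with 7 (median 8). In GFP-only at LL36, replicate 2 listed 4 intronic sites where the median was 0, and 2 sites next to an A tract where the median was 0. It had the longest list of its group, 210 positions.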

How the results depend on the processing

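The number of sites depended on the listing required: 868 with 3 of 5 libraries, 251 with all 5, 301 with at least 2 crosslinks, 119 after merging within 10 nt, and 553 to 785 when 1 library was left out and 3 of the other 4 had to list the site, the highest without replicate 4. Sites intronic in every model numbered 75 with all 5 libraries required. Sites seen again at LL24 numbered 351 in any library and 109 in all 3. Leaving out each LL24 library gave 4.64 to 6.30 for AtGRP7-GFP against GFP-only, 2.43 to 5.07 against AtGRP7 R49Q-GFP and 0.622 to 3.26 for AtGRP7 R49Q-GFP against GFP-only (log2), and 0.458 to 6.53 percentage points for the share listed. The lowest of these were found without replicate 3 of GFP-only (4.64), replicate 3 of AtGRP7 R49Q-GFP (2.43), replicate 2 of AtGRP7 R49Q-GFP (0.622, and 0.748 without replicate 3 of GFP-only) and replicate 1 of AtGRP7-GFP (0.458), and 3.26 was found without replicate 3 of AtGRP7 R49Q-GFP and 6.53 without replicate 2 of AtGRP7-GFP. As percent of positions listed the first 2 differences turned to -0.50 and -1.39. The share difference turned to -0.405 without CA1 and to -0.724 over sites intronic in every model. It was 6.08 with positions within 10 nt merged. Uridine was at 74.8% of sites with 1 site per group. With the replicate block the exact p was 0.25 for all 3 genotype pairs (differences 5.69, 3.89 and 1.80), and the labels name no shared batch. Deviations per gene correlated above 0.1 in 2 of the 9 same-numbered pairs (0.51 and 0.55, R49Q with GFP-only; lowest -0.14), so the numbers were not taken to pair the libraries, although replicate 2 listed the most sites and positions and replicate 3 the fewest in all 3 genotypes. Leaving out sites next to A tracts, or in snoRNA and tRNA genes, was added after seeing the data and turned no direction. Over all alternatives 62 values kept their direction or, without a test, stayed within 1.5 times (counts) or the interval (uridine), 9 moved and 4 turned. No test could pass 0.05 with so few libraries, so a tested value could change only in direction. A site below the significance call of a short list cannot be told from an absent one at this depth.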
